A study of Mus musculus with 12 samples.

Results

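Potassium channel genes were taken as all protein-coding mouse genes with a symbol that begins with Kcn. Of 94 such genes, 80 had a mean of at least 10 counts over the 12 libraries and are the members described here, out of 48709 gene IDs counted. They comprise 37 voltage-gated pore or silent subunits, 12 inward rectifiers, 10 two-pore channels, 7 calcium-activated or related channels and 14 auxiliary subunits or regulators. The 14 genes below the minimum included Kcnj1 and Kcnk16, both with 0 counts in every library. Just outside it were Kcnj13, with a mean of 8.58 counts, and Kcne2, with 6.25, and just inside were Kcne3, with 11.4, and Kcnk5, with 14.9. All 80 members passed edgeR's filter on low counts, so none was lost before testing.

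The tissue was the CA1 field of the mouse hippocampus, dissected under a microscope and profiled as polyadenylated RNA. In 6 libraries (MI) the mice had a myocardial infarction made by tying off a coronary artery. In the other 6 (Sham) the mice had comparable surgery in which the artery was not tied, so both groups share the operation. Strain, age, sex and the interval between surgery and dissection are not given in the sources used here. Nor is it stated whether 1 animal gave 1 library, and a p-value here reflects variation from library to library, which may be technical.

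Potassium channels let potassium ions leave or enter cells and so set the resting potential of neurons, the shape and rate of their action potentials and the clearance of extracellular potassium by glia. In CA1 pyramidal neurons, A-type channels of the Kcnd family limit dendritic excitability, the Kcnq channels carry the M current, and the small-conductance Kcnn channels shape the afterhyperpolarization. Auxiliary subunits such as the Kcnip and Kcnab proteins bind the pore-forming subunits and change their gating or surface level.

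Library totals ran from 20764133 to 35643127 counts, and the members held 0.587% to 0.65% of the counts in a library. All 6 listed CA1 pyramidal neuron markers were detected, and their summed level ran from 1016 to 1349 CPM (counts scaled to library size) in MI and from 653.01 to 1614 in Sham. Markers of neighbouring tissue were present and uneven. The summed level of 6 dentate granule cell markers was 73.9 to 329 CPM in MI and 93.1 to 860.2 in Sham, with Sham 6 the highest, and that of 8 meningeal and fibroblast markers was 99.7 to 193 in MI and 71.6 to 369 in Sham, with Sham 1 the highest. The summed level of 10 oligodendrocyte markers was 5096 to 6450.5 CPM in MI and 2772.5 to 5629 in Sham, with Sham 1, Sham 2 and Sham 3 the 3 lowest. The summed level of 6 neocortex markers was 206 to 278 CPM in MI and 162 to 444 in Sham, with Sham 1 the highest. Fezf2 among them went the other way, at 39.1 CPM in Sham 1, below every MI library. Sham 1 was also the lowest in CA1 markers. In bulk tissue, fewer cells of a type and less RNA per cell cannot be told apart.

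Levels per length of exon, in CPM per kilobase of merged exon averaged over 12 libraries, spanned 0.127 to 127 among the members, with a median of 5.05. The highest was Kcnab2, the cytoplasmic beta subunit of Kcna channels, at 127. Kcnip2, a calcium-binding subunit of Kcnd channels, was at 41.9, and Kcnj10, the inward rectifier of astrocytes, at 36.95. Kcnj9, a subunit of G protein-gated inward rectifiers, stood at 35.4, and Kcnd2, the main A-type pore subunit of CA1 dendrites, at 29.0. Kcnk1 led the two-pore channels at 26.1, ahead of Kcnk2 at 8.95, and Kcnt1, a sodium-activated channel grouped here with the calcium-activated ones, led its group at 17.1, ahead of Kcnn2 at 8.41. The lowest level was that of Kcnj5, at 0.127.

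**Figure D1:**
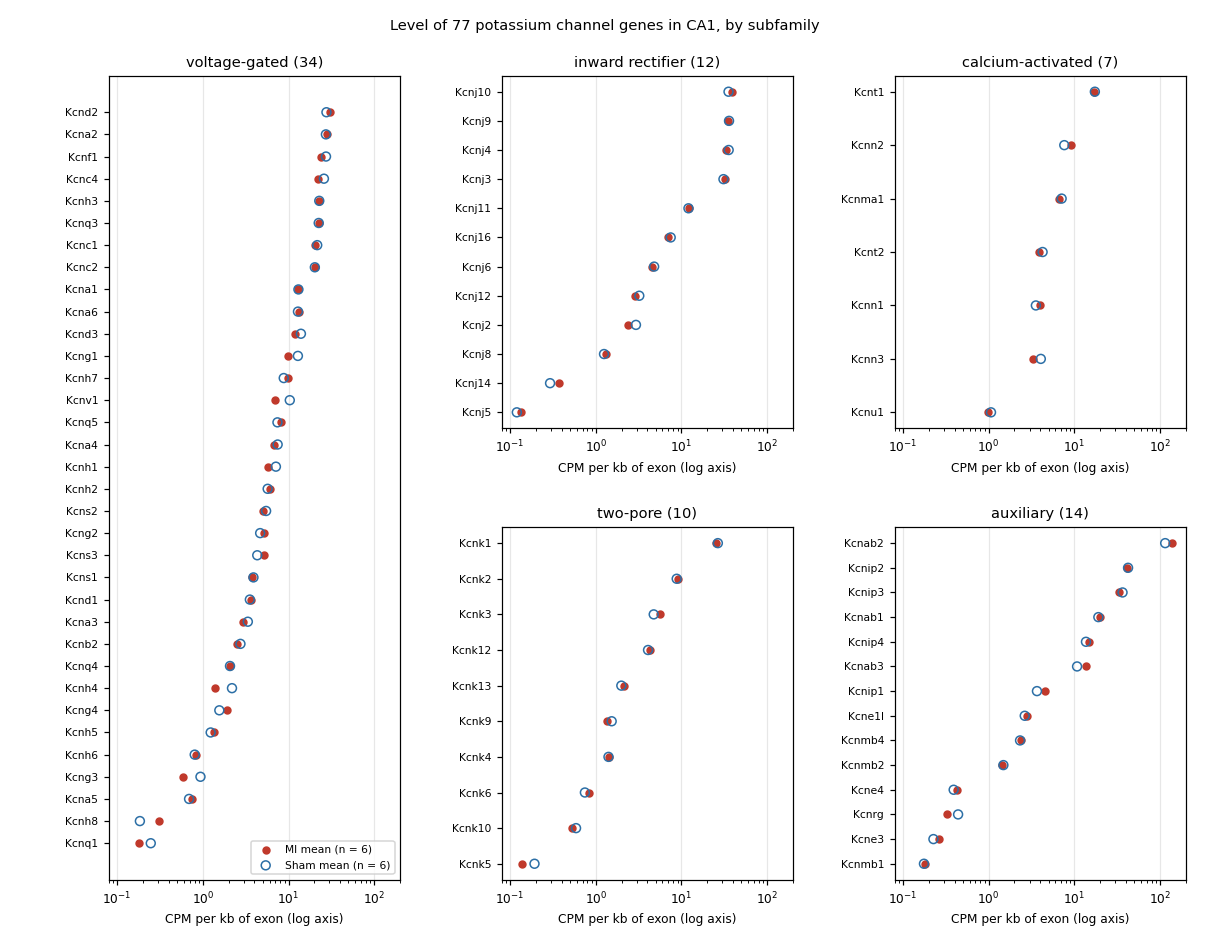
Level of 77 members, as CPM per kilobase of exon on a log axis, by subfamily; filled points are the MI mean and open circles the Sham mean (6 libraries each). Kcnab2 is highest, at 127 averaged over all libraries, and the MI and Sham means of most members lie close together.

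No member passed the adjusted threshold of 0.05 in edgeR's quasi-likelihood test of MI against Sham, and neither did any of the 16829 genes tested (background 0%). The smallest adjusted p of a member was 0.597. At an unadjusted p under 0.05 in the same test there were 11 of 80 members, 13.75%, against a background of 7.55%. Of these, 5 were higher in MI (background 3.95%) and 6 lower (background 3.59%). DESeq2 also gave 0 members at an adjusted p under 0.05 (background 0.0594%) and 12 at an unadjusted p under 0.05 (background 7.75%), 5 higher (background 3.81%) and 7 lower (background 3.94%), and limma-voom gave 0 (background 0%) and 16 (20%, background 11.3%). The median log2 fold change, MI minus Sham, was 0.01 for the members and -0.01 for all genes tested, with 42 members positive and 38 negative (52.5% positive, background 47.6%). In 59 of 80 members (73.75%) the log2 fold change was under 0.2 in size, against 82.4% of all genes tested. The MI and Sham ranges overlapped in every member, against 0.41% of all genes tested without overlap. The values below are therefore differences that did not pass adjustment.

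**Figure D2:**
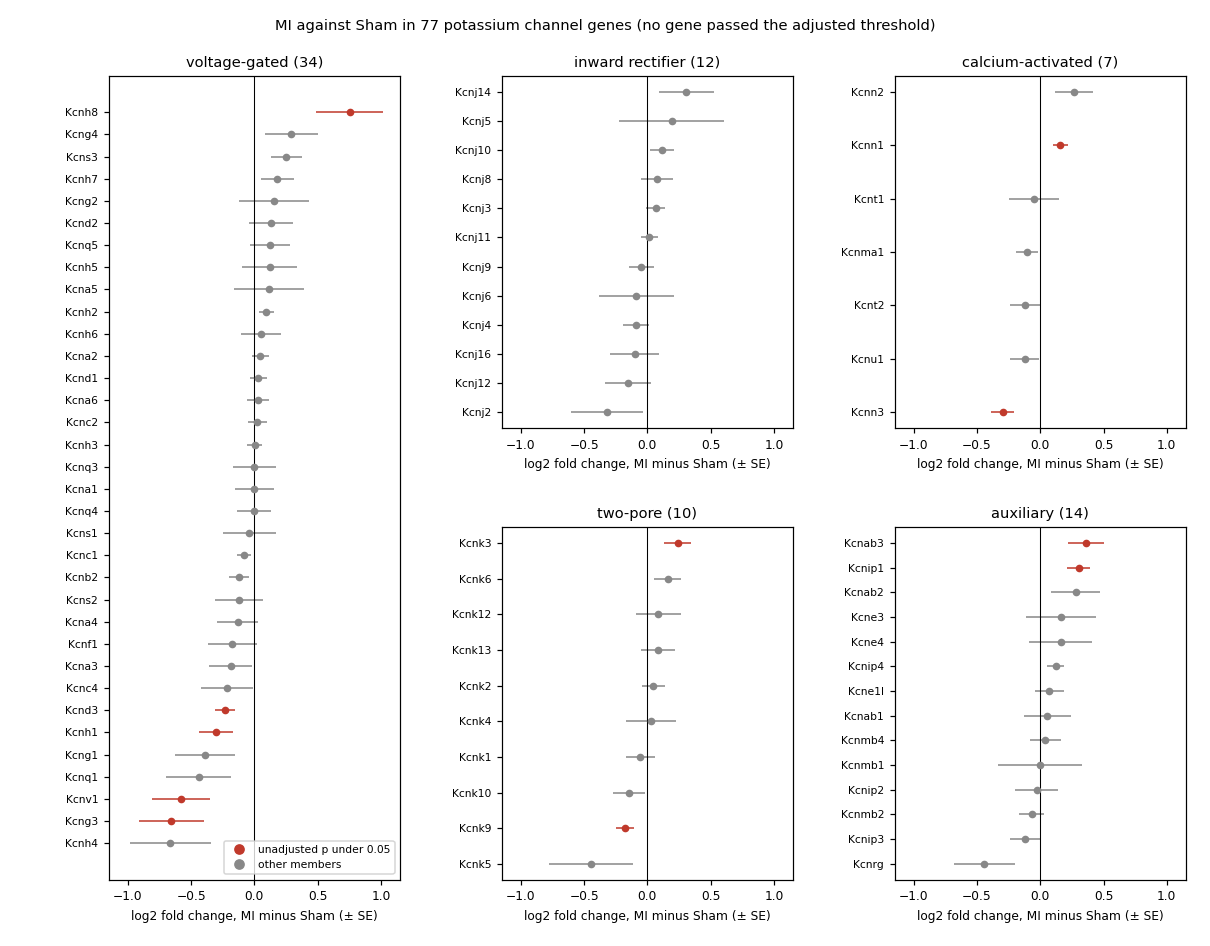
Log2 fold change, MI minus Sham, with its standard error for 77 members by subfamily, from edgeR's quasi-likelihood fit; red marks the 11 at an unadjusted p under 0.05. The values lie on both sides of 0 in every subfamily, from -0.66 in Kcnh4 to 0.75 in Kcnh8.

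Among the 37 voltage-gated members, 18 log2 fold changes were positive (background 47.6%) and 19 negative, with a median of 0.00. At an unadjusted p under 0.05 in edgeR there were 1 higher member (background 3.95%) and 4 lower ones (background 3.59%). Kcnd3, the A-type pore subunit (chr3:105452330-105674002, plus strand), read 121, 118.5, 113, 101, 117 and 113 CPM in MI 1 to 6 and 149, 141, 146, 138, 108 and 121 CPM in Sham 1 to 6. Sham 5 and Sham 6 lay within the MI range and the other 4 Sham libraries above it. MI minus Sham, Kcnd3 came to a log2 fold change of -0.23 (SE 0.08, edgeR adjusted p = 0.597). Its close relative Kcnd2 was at 156 ± 19.98 CPM among MI and 143 ± 43.8 among Sham libraries (SD, n = 6), a log2 fold change of 0.13 (SE 0.17). Without Sham 5, the highest library of Kcnd2, it was 0.26 (SE 0.15).

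Kcnh8, a pore subunit of the Elk branch (chr17:52602709-52979194, plus strand), read 1.43, 1.42, 1.14, 1.08, 1.63 and 1.74 CPM in MI 1 to 6 and 0.55, 0.85, 0.99, 1.52, 0.41 and 0.71 CPM in Sham 1 to 6. It rested on a mean of 29.25 counts per library, and Sham 4 lay within the MI range with the other 5 Sham libraries below it. Kcnh8 came to a log2 fold change of 0.75 (SE 0.27, edgeR adjusted p = 0.597). Kcng3, a silent subunit that forms channels with Kcnb partners (chr17:83585957-83631895, minus strand), read 1.57, 3.003, 1.14, 1.78, 2.73 and 1.68 CPM in MI 1 to 6 and 1.98, 3.47, 3.31, 3.92, 1.97 and 4.23 CPM in Sham 1 to 6. The log2 fold change of Kcng3 was -0.66 (SE 0.26, edgeR adjusted p = 0.614), with 2 Sham libraries inside the MI range.

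Kcnv1, another silent subunit (chr15:45106284-45114920, minus strand), read 27.3, 28.8, 34.1, 38.5, 29.6 and 32.3 CPM in MI 1 to 6 and 82.7, 61.8, 33.5, 30.0, 39.0 and 37.7 CPM in Sham 1 to 6. Sham 1 and Sham 2 stood far above the other 10 libraries, and the log2 fold change was -0.58 (SE 0.23, edgeR adjusted p = 0.614). Kcnh1, a pore subunit of the Eag branch (chr1:192190774-192510159, plus strand), read 41.6, 39.4, 43.9, 41.2, 39.3 and 48.3 CPM in MI 1 to 6 and 66.3, 56.9, 39.1, 38.5, 48.7 and 63.9 CPM in Sham 1 to 6, a log2 fold change of -0.30 (SE 0.13, edgeR adjusted p = 0.639). In Kcnh1, 4 Sham libraries lay above every MI library and the other 2 below them. Without Sham 1 and Sham 6, the libraries highest in meningeal and in dentate markers, the log2 fold change was -0.37 in Kcnv1 and -0.12 in Kcnh1, with edgeR adjusted p = 0.769 and 0.892. Sham 1 held the highest value of both genes and Sham 6 the next highest of Kcnh1. The smaller differences therefore follow from the values left out and say nothing about tissue. Sham 1 was also the highest in the summed neocortex markers. The part of that neighbouring tissue in either result was not tested.

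Of the members with at least 100 counts, Kcnc1, Kcnj11 and Kcnh2 had narrow ranges over the 12 libraries, 0.32, 0.33 and 0.34 on the log2 scale. Kcnc1, a fast delayed rectifier, was at 193 ± 15.7 CPM in MI against 205 ± 9.96 in Sham (SD, n = 6).

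The other voltage-gated members had an unadjusted p of 0.05 or more in edgeR, and most of the abundant ones had log2 fold changes near 0. Kcna1 and Kcna2, which form low-threshold axonal channels, had log2 fold changes of 0.00 (SE 0.15) and 0.05 (SE 0.07), and Kcna2 ran from 302 to 357 CPM in MI. Kcnc1, Kcnc2 and Kcnc4, pore subunits of fast-spiking neurons, had log2 fold changes of -0.08 (SE 0.06), 0.02 (SE 0.08) and -0.22 (SE 0.21). Without Sham 5, the lowest library of Kcnc4, that of Kcnc4 was -0.36 (SE 0.14, edgeR adjusted p = 0.329). Kcnq3, a subunit of the M channel, was at 331 ± 56.7 CPM in MI against 331 ± 91.4 in Sham (SD, n = 6). Kcnh4 had the most negative log2 fold change of the members, -0.66 (SE 0.32, edgeR adjusted p = 0.677): its MI libraries ran from 3.94 to 7.24 CPM, while Sham 1, Sham 2 and Sham 3 read 15.9, 12.02 and 8.55 and the other 3 Sham libraries 3.36 to 6.68. Kcnf1, a silent subunit, was highest in Sham 1 (183 CPM) and Sham 2 (171) and lowest in Sham 6 (75.3), around an MI range of 92.3 to 133.

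In the 12 inward rectifiers, 6 log2 fold changes were positive (background 47.6%) and 6 negative, and the median was -0.02. No inward rectifier had an unadjusted p under 0.05 in edgeR (background 7.55%). Kcnj10 was at 208 ± 15.4 CPM in MI against 192 ± 30.1 in Sham (SD, n = 6), a log2 fold change of 0.12 (SE 0.09). Its lowest MI library read 188 CPM, and Sham 1, Sham 2 and Sham 3 read 169, 161 and 168, below every MI library, while Sham 4, Sham 5 and Sham 6 read 235, 204 and 214. Kcnj9 was at 149 ± 12.45 in MI and 154 ± 25.2 in Sham, a log2 fold change of -0.05 (SE 0.10). Kcnj6, also a G protein-gated subunit, ran from 17.0 CPM in Sham 1 to 63.6 in Sham 6, a wider span than its MI libraries, at 19.1 to 41.5. Kcnj14, an inward rectifier with few counts, had the smallest p of the 12, at 1.0002 ± 0.211 CPM in MI against 0.795 ± 0.245 in Sham (SD, n = 6) and a log2 fold change of 0.31 (SE 0.22, edgeR adjusted p = 0.781). Kcnj11 and Kcnj8, the pore subunits of ATP-sensitive channels, had log2 fold changes of 0.01 (SE 0.07) and 0.07 (SE 0.13).

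In the 10 two-pore members, 6 log2 fold changes were positive (background 47.6%) and 4 negative, and the median was 0.04. At an unadjusted p under 0.05 in edgeR there were 1 higher member (background 3.95%) and 1 lower one (background 3.59%). Kcnk3, the acid-sensitive leak channel TASK-1 (chr5:30588170-30625271, plus strand), read 26.3, 20.9, 24.4, 17.3, 23.2 and 21.6 CPM in MI 1 to 6 and 19.7, 16.9, 21.3, 22.3, 17.2 and 15.9 CPM in Sham 1 to 6. Kcnk3 came to a log2 fold change of 0.24 (SE 0.11, edgeR adjusted p = 0.645), and the lowest MI library lay below 3 Sham libraries. Kcnk9, its relative TASK-3 (chr15:72501089-72546340, minus strand), read 16.5, 17.3, 16.1, 17.8, 16.7 and 15.9 CPM in MI 1 to 6 and 17.4, 20.9, 20.5, 17.5, 20.8 and 16.1 CPM in Sham 1 to 6. The log2 fold change of Kcnk9 was -0.18 (SE 0.07, edgeR adjusted p = 0.624), with 3 Sham libraries inside the narrow MI range. Kcnk6, a relative of Kcnk1, was at 3.46 ± 0.407 CPM in MI against 3.10 ± 0.353 in Sham (SD, n = 6), a log2 fold change of 0.16 (SE 0.11, edgeR adjusted p = 0.762). Kcnk1, a weak leak channel, and Kcnk2, the mechanically gated TREK-1, had log2 fold changes of -0.05 (SE 0.12) and 0.05 (SE 0.09).

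In the 7 calcium-activated or related members, 2 log2 fold changes were positive (background 47.6%) and 5 negative, with a median of -0.10. The negative ones include Kcnt1, Kcnt2 and Kcnu1, counted here as related channels, at -0.05 (SE 0.20), -0.12 (SE 0.12) and -0.12 (SE 0.11). At an unadjusted p under 0.05 in edgeR there were 1 higher member (background 3.95%) and 1 lower one (background 3.59%). Both of these are small-conductance channels. Kcnn3, known as SK3 (chr3:89520164-89675132, plus strand), read 37.2, 37.04, 33.2, 31.8, 34.6 and 33.2 CPM in MI 1 to 6 and 44.5, 48.9, 46.8, 42.0, 31.4 and 40.9 CPM in Sham 1 to 6. In Kcnn3, 5 Sham libraries lay above every MI library and Sham 5 lay below them all, and the log2 fold change was -0.30 (SE 0.09, edgeR adjusted p = 0.597). Kcnn1, known as SK1 (chr8:70842049-70863258, minus strand), read 18.7, 18.02, 18.4, 17.6, 18.1 and 18.2 CPM in MI 1 to 6 and 16.2, 14.9, 17.1, 18.6, 14.7 and 16.2 CPM in Sham 1 to 6. In Kcnn1, 5 Sham libraries lay below every MI library and Sham 4 lay within their range, and the log2 fold change was 0.16 (SE 0.06, edgeR adjusted p = 0.597). Kcnn2, the most abundant of the 3, was at 68.6 ± 3.90 CPM in MI against 56.9 ± 15.4 in Sham (SD, n = 6), with Sham 1 at 34.5 and Sham 5 at 79.99, and a log2 fold change of 0.27 (SE 0.15, edgeR adjusted p = 0.724). Kcnma1, the large-conductance pore subunit, had a log2 fold change of -0.10 (SE 0.09).

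Among the 14 auxiliary members, 10 log2 fold changes were positive (background 47.6%) and 4 negative, with a median of 0.06. At an unadjusted p under 0.05 in edgeR there were 2 higher members (background 3.95%) and 0 lower ones (background 3.59%). Kcnip1, a calcium-binding subunit of Kcnd channels (chr11:33629339-33993152, minus strand), read 30.1, 29.1, 31.0, 25.4, 26.6 and 25.9 CPM in MI 1 to 6 and 21.9, 22.7, 23.4, 28.4, 21.4 and 18.4 CPM in Sham 1 to 6. Sham 4 lay within the MI range and the other 5 Sham libraries lay below it. Kcnip1 came to a log2 fold change of 0.30 (SE 0.09, edgeR adjusted p = 0.597), the smallest p among the members. Kcnab3, a beta subunit of Kcna channels (chr11:69326258-69333042, plus strand), read 47.7, 34.2, 42.5, 37.5, 37.1 and 39.1 CPM in MI 1 to 6 and 38.5, 25.0, 31.1, 39.8, 29.1 and 21.5 CPM in Sham 1 to 6, a log2 fold change of 0.36 (SE 0.14, edgeR adjusted p = 0.614). Sham 1 and Sham 4 lay within the MI range of Kcnab3 and the other 4 Sham libraries below it. Kcnip4 (chr5:48389502-49524907, minus strand) read 50.3, 55.7, 53.1, 54.1, 51.1 and 59.0 CPM in MI 1 to 6 and 54.3, 45.2, 42.2, 51.7, 48.6 and 55.3 CPM in Sham 1 to 6, a log2 fold change of 0.12 (SE 0.07). The log2 fold changes were positive in 3 of 3 Kcnab and 3 of 3 Kcne members, and in 2 of 4 Kcnip members (background 47.6%). All 3 Kcne values were smaller than their SE, and Kcne3 rested on a mean of 11.4 counts. In Kcnab2 the MI libraries ran from 655 to 949.7 CPM and the Sham libraries from 371 in Sham 1 to 964 in Sham 5, with a log2 fold change of 0.28 (SE 0.20). Without Sham 5, the highest library of Kcnab2, it was 0.43 (SE 0.17, edgeR adjusted p = 0.345). Leaving out Sham 5 lowered the log2 fold change in other members, to 0.59 in Kcnh8 and 0.13 in Kcnn1. It also raised the share of all genes at an unadjusted p under 0.05 in edgeR, from 7.55% to 11.9%.

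The remaining auxiliary members had log2 fold changes on both sides of 0. Kcnmb4 and Kcnmb2, beta subunits of the large-conductance channel, had log2 fold changes of 0.04 (SE 0.12) and -0.07 (SE 0.10). Kcnip2 and Kcnip3, the other abundant Kcnip genes, had -0.03 (SE 0.17) and -0.12 (SE 0.12), and Kcnip2 ran from 102 to 178 CPM in MI and from 111 to 215 in Sham. Kcnrg, a cytoplasmic regulator of channel assembly, was the most negative auxiliary member at -0.44 (SE 0.24), from 0.594 ± 0.139 CPM in MI against 0.802 ± 0.261 in Sham (SD, n = 6).

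**Figure D3:**
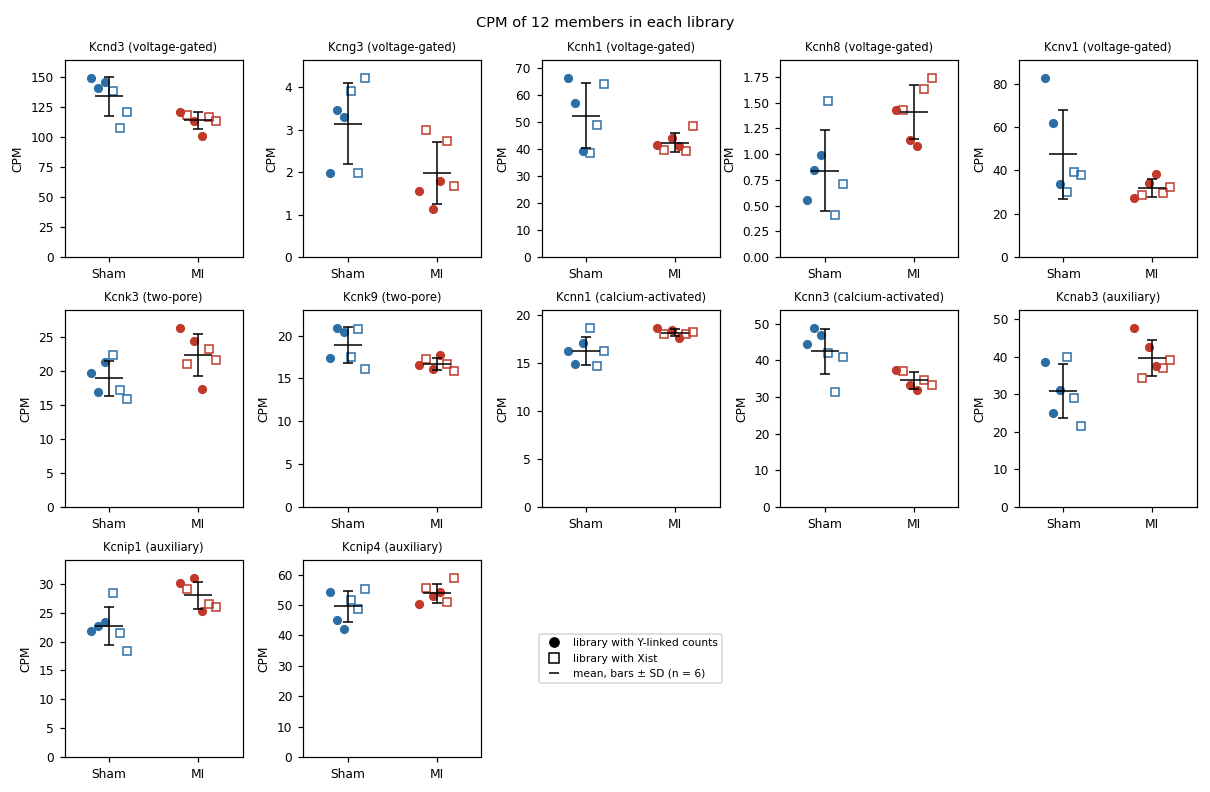
CPM in each of the 12 libraries for 12 members with an unadjusted p under 0.05 or in the authors' deposited tables, with the mean and SD of each group (n = 6). Kcnip1 shows 5 of 6 Sham libraries below all MI libraries and Kcnn3 shows 5 of 6 above them, and every panel has overlapping groups.

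The upstream windows of Kcnn1, Kcnn3 and Kcnip1 are shown because these are the 2 small-conductance channels that differed in opposite directions and the member with the smallest p. Each is the 250 bases before the start in RefSeq's GRCm38.p6 annotation, given 5′ to 3′ along the gene's strand, with CG dinucleotides in capitals; they lie at chr8:70863259-70863508 (minus), chr3:89519914-89520163 (plus) and chr11:33993194-33993443 (minus).
Kcnn1: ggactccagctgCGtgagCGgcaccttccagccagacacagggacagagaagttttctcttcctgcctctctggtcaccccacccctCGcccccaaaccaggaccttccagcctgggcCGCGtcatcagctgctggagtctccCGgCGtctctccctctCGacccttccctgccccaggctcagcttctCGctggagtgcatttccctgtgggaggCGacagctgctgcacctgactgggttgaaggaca
Kcnn3: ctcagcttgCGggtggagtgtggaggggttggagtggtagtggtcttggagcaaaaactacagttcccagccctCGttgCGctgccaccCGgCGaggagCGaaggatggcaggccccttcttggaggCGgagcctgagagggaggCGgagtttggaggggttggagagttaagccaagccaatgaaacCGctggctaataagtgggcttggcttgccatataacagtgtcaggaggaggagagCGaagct
Kcnip1: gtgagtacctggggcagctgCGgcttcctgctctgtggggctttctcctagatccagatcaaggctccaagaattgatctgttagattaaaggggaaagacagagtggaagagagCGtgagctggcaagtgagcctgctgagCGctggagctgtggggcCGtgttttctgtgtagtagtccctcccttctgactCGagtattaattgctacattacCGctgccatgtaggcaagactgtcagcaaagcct
CG was searched on the printed strand, which reads the same on the other. The windows hold 10 CG dinucleotides in Kcnn1, 10 in Kcnn3 and 6 in Kcnip1. A RefSeq window was matched for 57 of 80 members, with a median of 10 CG dinucleotides against 15 over 12121 tested genes, and by subfamily the medians were 16 for voltage-gated, 10 for calcium-activated, 7 for inward rectifier, 6 for auxiliary and 5 for two-pore members. These are counts of letters, and nothing about binding or methylation was measured.

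The authors' deposited tables hold 542 genes as higher in MI and 517 as lower, and 9 members are among them, 11.2% against a background of 6.09%. The 6 higher ones, 7.5% of members against a background of 3.13%, are Kcnab3, Kcnh8, Kcnip1, Kcnip4, Kcnk3 and Kcnn1, with log2 fold changes in the authors' deposited table of 0.35, 0.28, 0.22, 0.17, 0.19 and 0.14. The 3 lower ones, 3.75% against a background of 2.97%, include Kcnd3 and Kcnk9, at -0.15 and -0.19 in the authors' deposited table. For these named members the authors' adjusted p ran from 0.0122 in Kcnip1 to 0.0455 in Kcnk3. The test that gave it is not described in the sources used here. Their edgeR adjusted p ran from 0.597 in Kcnip1 to 0.716 in Kcnip4, so none passed here. Of the 9, 7 had an unadjusted p under 0.05 in the edgeR test. The deposited tables and the edgeR test use the same 12 libraries, so this overlap is not independent. The share among all deposited genes is not given here. Kcnn3, with the second smallest p among the members, is not in the tables. The deposited values spread less than log2 CPM from the counts: the median Sham SD of the 9 members was 0.08 in the authors' deposited table and 0.20 from the counts, and the median MI SD was 0.06 and 0.10.

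Sham libraries varied more than MI libraries. The SD of CPM was larger in Sham than in MI in 70 of 80 members, 87.5%, against a background of 76.4%. Sham 1, Sham 5 and Sham 6 held 86 of the 160 highest or lowest values of the members (53.75%, against 46.0% for all genes tested). Sham 1 was an extreme in 32, Sham 6 in 31, Sham 5 in 23 and MI 5 in 2. The summed auxiliary level was 1354 ± 140 CPM in MI against 1204 ± 273 in Sham (SD, n = 6), with Sham 1 lowest at 880 and Sham 5 highest at 1602. The voltage-gated sum was 3549 ± 102 in MI and 3601 ± 213 in Sham. The summed level of every subfamily overlapped between the groups. Of members with at least 100 counts, Kcnh4, Kcng2, Kcnj2, Kcnj6 and Kcng1 had the widest ranges, from 1.85 to 2.21 on the log2 scale. Kcnh4 ran from 3.36 CPM in Sham 5 to 15.9 in Sham 1, and Kcnj2 from 7.32 in Sham 3 to 29.6 in Sham 6.

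**Figure D4:**
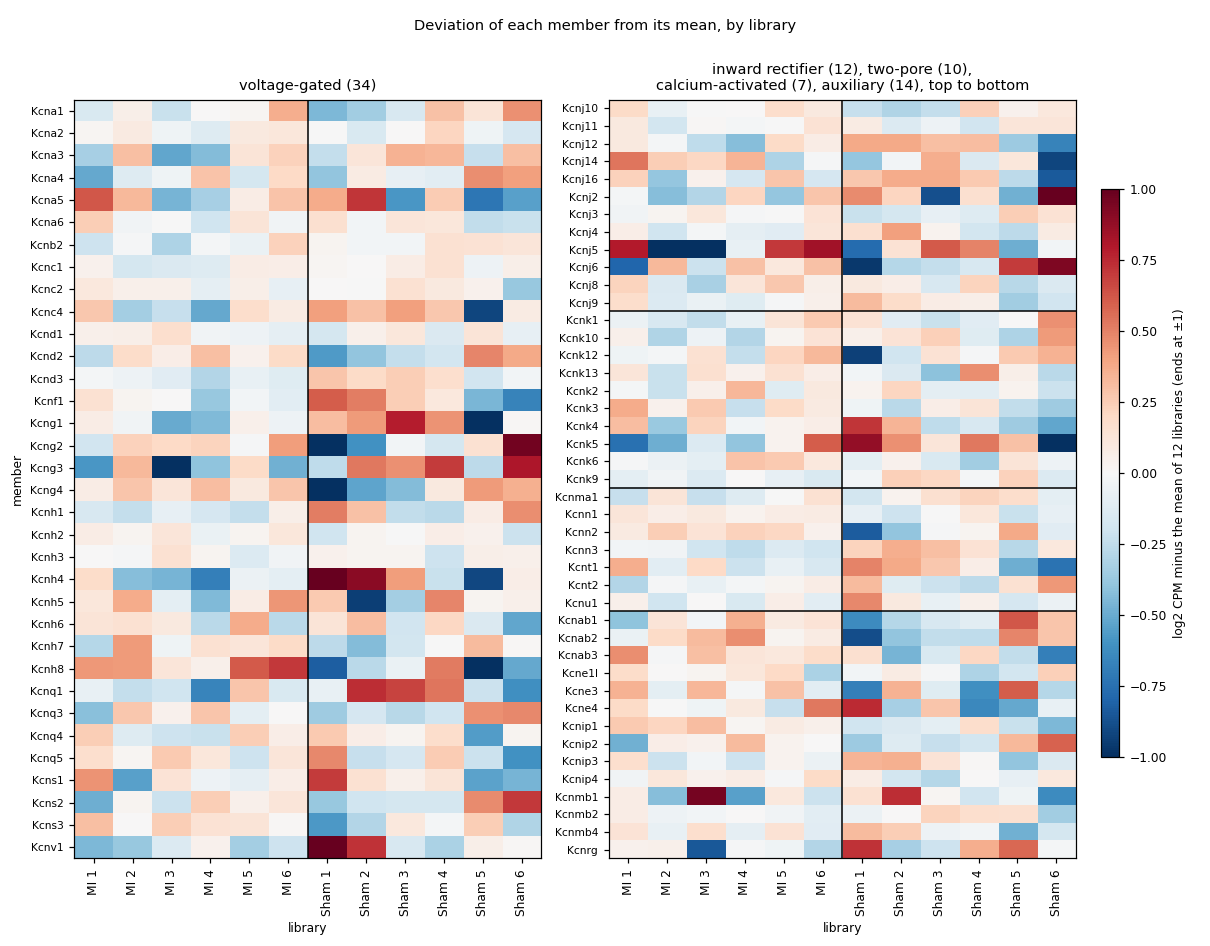
Log2 CPM of 77 members, each minus its mean over 12 libraries, with colours ending at 1 in either direction, members in rows by subfamily and libraries in columns. Values beyond 1 stand in Sham 1, Sham 5 and Sham 6 and, for Kcnj5 and Kcng3, in MI 2 and MI 3.

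Counts of Y-linked genes exceeded those of Xist in MI 1, MI 3, MI 4 and Sham 1 to 3, and Xist exceeded them in MI 2, MI 5, MI 6 and Sham 4 to 6, so each group holds 3 libraries of each kind. They are called here the Y-linked set and the Xist set; these sets come from the data and are not groups of the study. Within the Y-linked set, 27 of 80 members had an unadjusted p under 0.05 in edgeR (33.75%, background 16.3%), 10 higher (background 7.59%) and 17 lower (background 8.67%). Within the Xist set 0 of 80 did (background 1.27%; 0.784% higher and 0.489% lower). Kcnn3 was the 1 member at an adjusted p under 0.05 within the Y-linked set (background 1.26%), with a log2 fold change of -0.46 (edgeR adjusted p = 0.0396), against -0.12 within the Xist set, where 0 members passed (background 0%). The log2 fold change was larger in size within the Y-linked set in 57 of 80 members, with a median size of 0.23 against 0.12. It had opposite signs in the sets in 44. These figures were not set against the same ones over all genes tested, so they cannot be read as particular to the members. The share of all genes at an unadjusted p under 0.05 in edgeR also differed between the sets, 16.3% against 1.27%.

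The difference between the sets was tested as an interaction in edgeR: 0 members passed an adjusted p of 0.05 (background 0.0119%), and 11 had an unadjusted p under 0.05 (13.75%, background 8.24%). The smallest p was that of Kcng4, another silent subunit, with log2 fold changes of 0.83 within the Y-linked set and -0.08 within the Xist set (edgeR interaction adjusted p = 0.345). In Kcng4, Sham 1, Sham 2 and Sham 3 read 2.9978, 4.39 and 4.68 CPM and the MI libraries 6.69 to 7.88. Kcnj10 had 0.32 and -0.06 (edgeR interaction adjusted p = 0.420), and Kcnn3 had an edgeR interaction adjusted p = 0.598. Sham 1, Sham 2 and Sham 3 are also the 3 lowest libraries in oligodendrocyte markers, and the part of that tissue difference in these values was not tested.

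**Figure D5:**
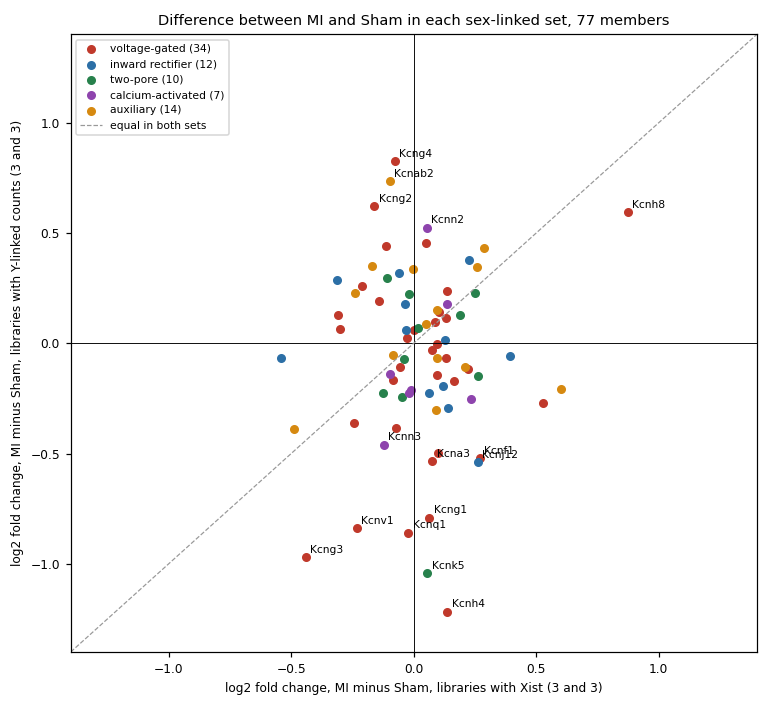
Log2 fold change, MI minus Sham, of 77 members within the Y-linked set (vertical) against the Xist set (horizontal), 3 MI and 3 Sham libraries in each, with a dashed line of equality. Vertical values spread more widely, from -1.22 in Kcnh4 to 0.83 in Kcng4.

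Partners of the channels were taken from 4 lists of 40 genes in all: partners of voltage-gated channels, partners of ATP-sensitive and large-conductance channels, HCN pacemaker channels, and potassium pumps and cotransporters. Of 39 tested, 20 log2 fold changes were positive and 19 negative, and 0 passed an adjusted p of 0.05 in edgeR (background 0%). At an unadjusted p under 0.05 in edgeR there were 3 higher (background 3.95%) and 1 lower (background 3.59%). Lgi3, a secreted protein that binds ADAM-family partners of Kcna channels, was at 114 ± 5.55 CPM in MI against 93.2 ± 14.5 in Sham (SD, n = 6), a log2 fold change of 0.29 (SE 0.09, edgeR adjusted p = 0.597). Cntn2, an adhesion protein of the juxtaparanode where Kcna channels cluster, was at 178 ± 15.5 and 151 ± 23.7, a log2 fold change of 0.23 (SE 0.10, edgeR adjusted p = 0.624). Hcn2 was at 120 ± 3.98 and 104 ± 15.2, a log2 fold change of 0.20 (SE 0.08, edgeR adjusted p = 0.624). In Lgi3, Cntn2 and Hcn2, MI and Sham libraries overlapped. Sham 1, Sham 2 and Sham 3, the lowest libraries in oligodendrocyte markers, were also the 3 lowest in Lgi3 (79.7, 85.1 and 77.1 CPM) and in Cntn2 (134, 120 and 148 CPM). All 10 oligodendrocyte markers had a positive log2 fold change (median 0.50), and their part in these results was not tested.

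The kit does not mark strand, and 26 members share exon bases with another gene, 24 of them with a gene on the opposite strand, so reads there cannot be told apart. Among antisense neighbours, A330015K06Rik, which shares 201 exon bases (2.34%) with Kcnab1 and was chosen after its values were seen, was at 2.39 ± 0.33 CPM in MI against 1.37 ± 0.19 in Sham (SD, n = 6). Its libraries ran from 1.81 to 2.74 in MI and from 1.13 to 1.63 in Sham, without overlap (background 0.25% higher in MI), and the log2 fold change was 0.81 (SE 0.13, edgeR adjusted p = 0.597). Kcnab1 itself had a log2 fold change of 0.06 (SE 0.19). In the other antisense neighbours examined and tested, MI and Sham overlapped, with log2 fold changes from -0.15 to 0.45.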

How the data were processed

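RNA was measured in 12 libraries of CA1 tissue, 6 MI and 6 Sham, as single-end 50-base reads per the labels. The submitters' processing notes name FastQC 0.11.5, STAR 2.5.2b, featureCounts, Subread 1.5.1 and the mm10 build; the sources used here give neither the annotation release nor the strand setting. The deposited values are raw counts of reads for each Ensembl gene ID. The authors also deposited tables of genes higher and lower in MI, with log2 values per library, a log2 fold change and an adjusted p-value; their making is not described in the sources used here. Symbols and positions came from GENCODE M21 on GRCm38 for 48349 of 48709 IDs.

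The comparison of MI and Sham used edgeR 4.0.16 under R 4.3.3, with the two-sided quasi-likelihood F test with TMM scaling, filterByExpr and Benjamini-Hochberg adjustment over 16829 genes, threshold 0.05; log2 CPM used a prior count of 2. SE was the log2 fold change divided by the square root of the F statistic. Alternatives were DESeq2 1.42.0, limma-voom 3.58.1 with sample weights, other scalings and filters, 1 surrogate variable (sva 3.50.0), the replicate number as a block, the sex-linked sets and leaving out libraries. On simulated data for MI against Sham over 16662 genes the test found 8% of the genes altered 1.2-fold, 76% of those altered 1.5-fold, 92% of those altered 2-fold and all (100%) of those altered 3-fold; 200 genes were altered and 7 calls were false. The altered genes were drawn only from genes with more counts than Kcnh8 (mean 29.25). No effect shared by the genes of a library was simulated. The members also vary more than all genes tested (edgeR median coefficient of variation 17.1% against 11.3%), so these rates may not hold for them. The members and lists were chosen with earlier results of these data known. Named were, per subfamily, the 3 members with the smallest p and the 2 highest in CPM per kilobase, members in the deposited tables, partners with an unadjusted p under 0.05 and the members beside the count minimum; others are named by level or range. Values in all 12 libraries are given for 12 members in the deposited tables or with an unadjusted p under 0.05. Some genes are included in the counts over members and partners, but their own values are not reported here. Chi-square per degree of freedom between library pairs of a group ran from 6.27 to 79.8 over 30 pairs, so no pair was a duplicate.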

Additional observations from a re-analysis of the deposited data

How the results depend on the processing

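Within the Y-linked set 1 of 80 members (Kcnn3, -0.46) and 211 of 16777 genes (1.26%) passed an adjusted p of 0.05, about the same share. Under every other alternative run no member did, and DESeq2 gave 10 genes. Members at an unadjusted p under 0.05 numbered 27 within the Y-linked set, 0 within the Xist set, and 7 to 16 when each library was left out in turn (without MI 3, 8.75% of members and 5.45% of all genes; without Sham 2, 8.86% and 6.04%; without Sham 5, 20.3% and 11.9%). The median log2 fold change of the members was -0.0403 within the Y-linked set. Of 28 named genes under 25 alternatives, 23 of 697 log2 fold changes reversed sign, in 9 genes, none past the threshold, and 2 newly passed it, those of Kcnn3 and the partner Lgi3 (0.54), both within the Y-linked set. Reversed with limma-voom were Kcnip2 (0.132), Kcnj2 (0.0152) and Kcnk1 (0.0743), and with 1 surrogate variable Kcnj9 (0.0224) and Kcnt1 (0.12). Within the Y-linked set Kcnip2 (0.228) reversed, and within the Xist set Kcnab2 (-0.0975), Kcnd2 (-0.112), Kcnj10 (-0.0619), Kcnj9 (0.121) and Kcnt1 (0.234). Without Sham 1 and Sham 6, Kcnip2 (0.0511), Kcnj2 (0.0958) and Kcnk1 (0.0968) reversed. Leaving out each library gave Kcnip2 -0.098 to 0.109, Kcnt1 -0.169 to 0.0532, Kcnj9 -0.114 to 0.0151, Kcnk1 -0.119 to 0.042 and Kcnk2 -0.0234 to 0.096. The cause was not tested. The labels do not say whether replicate numbers pair the libraries. Same-numbered deviations correlated at 0.405, -0.35, 0.197, -0.319, -0.124 and 0.183. The best-correlated Sham library had the same number for MI 1, MI 3 and MI 6 and another number for the rest. A shared batch by number can therefore not be told from these values, and the main test used no pairing. With the replicate number as a block, 10 members (12.5%, against 6.57% of all genes) had an unadjusted p under 0.05, 0 passed adjustment, and Kcnt1 reversed to 0.00174. Depth limits the members with few counts most, Kcnh8 among those named.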
